A study of Mus musculus with 5 samples.

Results

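The miR-29 family was examined on 5 two-colour microRNA arrays, with every probe of the array design named mmu-miR-29a, mmu-miR-29b or mmu-miR-29c, alone or with the ending * (mmu-miR-29a*, mmu-miR-29b*, mmu-miR-29c*). This rule gave 6 of the 569 mouse miRNA probes: the guide strands miR-29a, miR-29b and miR-29c, which are the strands usually kept by the silencing complex, and the passenger strands miR-29a*, miR-29b* and miR-29c* from the opposite arm of each hairpin. Hippocampal RNA came from knock-in mice of the 129/Sv strain, 8 weeks old, that carry a human version of Bdnf, the gene of a neurotrophin needed for neuronal survival and plasticity. One group, Met/Met, has only the methionine form of the BDNF variant, and the other, Val/Val, only the valine form. Both groups share the strain and the human BDNF sequence, and neither unmodified mice nor heterozygotes were analysed here. Each array joined 1 Met/Met mouse labelled with Cy3 and 1 Val/Val mouse labelled with Cy5, and the labels call the 5 arrays biological replicates. The study asked which hippocampal miRNAs differ between the genotypes.

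The deposited columns are called Test and Cntrl, and neither the headers nor the labels say which genotype each one holds. Ratios are therefore Test over Cntrl on the log2 scale, and their direction between Met/Met and Val/Val is not settled. The dyes run the same way on every array, so dye and genotype cannot be told apart.

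MicroRNAs of the miR-29 family bind messenger RNAs through the seed, bases 2 to 8 of the guide strand, and lower their translation or stability. Known targets include the de novo DNA methyltransferases Dnmt3a and Dnmt3b, many collagens and other matrix genes, the secretase Bace1 and several pro-apoptotic BH3-only genes. In mouse brain the guide strands increase as neurons mature after birth, and they are described in neurons and in astrocytes.

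The sequences show which strands an array can tell apart. All 6 probe targets matched a RefSeq mature miRNA (GRCm38.p6) base for base. The guide strands share 1 seed, shown here in capitals, and no other of the 569 probes has it.

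miR-29a: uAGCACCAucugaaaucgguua
miR-29b: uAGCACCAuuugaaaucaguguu
miR-29c: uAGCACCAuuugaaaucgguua

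Counted from the 5′ end, miR-29a and miR-29c differ only by C10U, outside the seed. Over the 22 bases they share, miR-29c and miR-29b differ by G18A, U21G and A22U, and miR-29b is 1 base longer. Probes this alike can bind each other's targets, so the 3 guide signals are not independent measurements. The nearest probe outside the family lies at an edit distance of 8 or more from each guide.

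The passenger strands carry 3 different seeds (capitals), those of miR-29a* and miR-29b* differing at only 1 base. Over their whole length they differ from one another and from every other probe by an edit distance of at least 7, so each is matched by 1 probe of its own.

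miR-29a*: aCUGAUUUcuuuugguguucag
miR-29b*: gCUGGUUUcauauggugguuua
miR-29c*: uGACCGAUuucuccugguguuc

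The family is encoded by a pair of clusters. Mir29a lies on chromosome 6 at chr6:31062660-31062747 on the minus strand, 275 bases from Mir29b-1 at chr6:31063023-31063093 on the same strand. Mir29b-2 lies on chromosome 1 at chr1:195037040-195037120 on the plus strand, 426 bases from Mir29c at chr1:195037547-195037634. MiR-29b has the same mature sequence from either locus, whereas the probe miR-29b* matches base for base only the passenger strand of Mir29b-1. The passenger strand of Mir29b-2 has no probe among the 569. Aligned from base 2 of miR-29b*, it differs at U11C and U19C over 21 bases and runs on at its 3′ end. Strands this alike can bind the same probe, and the part of Mir29b-2 in the miR-29b* signal was not tested. The hairpins of these loci are given with the mature strands in capitals, the passenger strand first, because they show how the guide that is common to both comes with a different partner.

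Mir29b-1: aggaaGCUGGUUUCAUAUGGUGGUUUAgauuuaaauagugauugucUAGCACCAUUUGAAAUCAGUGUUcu
Mir29b-2: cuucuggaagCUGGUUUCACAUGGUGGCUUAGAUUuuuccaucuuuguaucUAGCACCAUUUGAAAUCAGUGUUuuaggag

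Every probe had 6 spots per array, and 568 of the 569 miRNAs, all 6 family members among them, passed the filter on low signal. To pass, Test or Cntrl had to exceed the 95th percentile of spots without probe on 3 or more of the arrays. Empty spots had medians of 31.4 to 45.7 intensity units in Test and 208 to 361 in Cntrl, so the floor under dim probes was lower in Test. Of the fixed marker lists, 5 of 5 neuron-enriched miRNAs, 1 of 2 of oligodendrocytes, 1 of 4 of microglia and leukocytes, 4 of 4 of vessel walls, 2 of 3 of red blood cells and 3 of 3 of striated muscle lay above the mismatch controls, which measure unspecific binding. The oligodendrocyte miRNA miR-219 and the myeloid miR-142 strands were among those that did not. For these lists, above means past the 95th percentile of the mismatch controls in Test or Cntrl on 3 or more arrays. The miR-29 strands are set against the same percentile in each column separately. No miRNA of the 568 differed between the columns at an adjusted p below 0.05 (0% called). Of all miRNAs, 19.4% had an unadjusted p below 0.05 in limma.

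The guide strands gave strong signal in both columns on every array. MiR-29a read 32119, 39107, 46694, 40070 and 20885 intensity units in Test on replicates 1 to 5, against 44528, 41961, 29800, 39407 and 45372 in Cntrl. Test was lowest on replicate 5 and Cntrl lowest on replicate 3, and the ranges of the columns overlap. On single arrays miR-29a reached up to 88.1% of the brightest miRNA spot in Test and 89.2% in Cntrl. It therefore lay near the upper end of the miRNA signals on those arrays. Ratios can be compressed near a scanner's upper limit, which is not known here, and whether this happened was not tested.

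MiR-29b read 18367, 22670, 19285, 13451 and 8534 units in Test, against 22045, 22207, 13219, 13127 and 20325 in Cntrl. MiR-29c read 28635, 35024, 33761, 28001 and 16392 units in Test, against 36327, 36518, 23363, 27897 and 37535 in Cntrl. Both behaved like miR-29a: the lowest Test value was on replicate 5, replicate 3 was the array with Test clearly above Cntrl, and the columns overlap. Relative to the 95th percentile of the mismatch controls on the same array, the lowest guide signal was 32.1 times, for miR-29b in Cntrl on replicate 4.

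**Figure D1:**
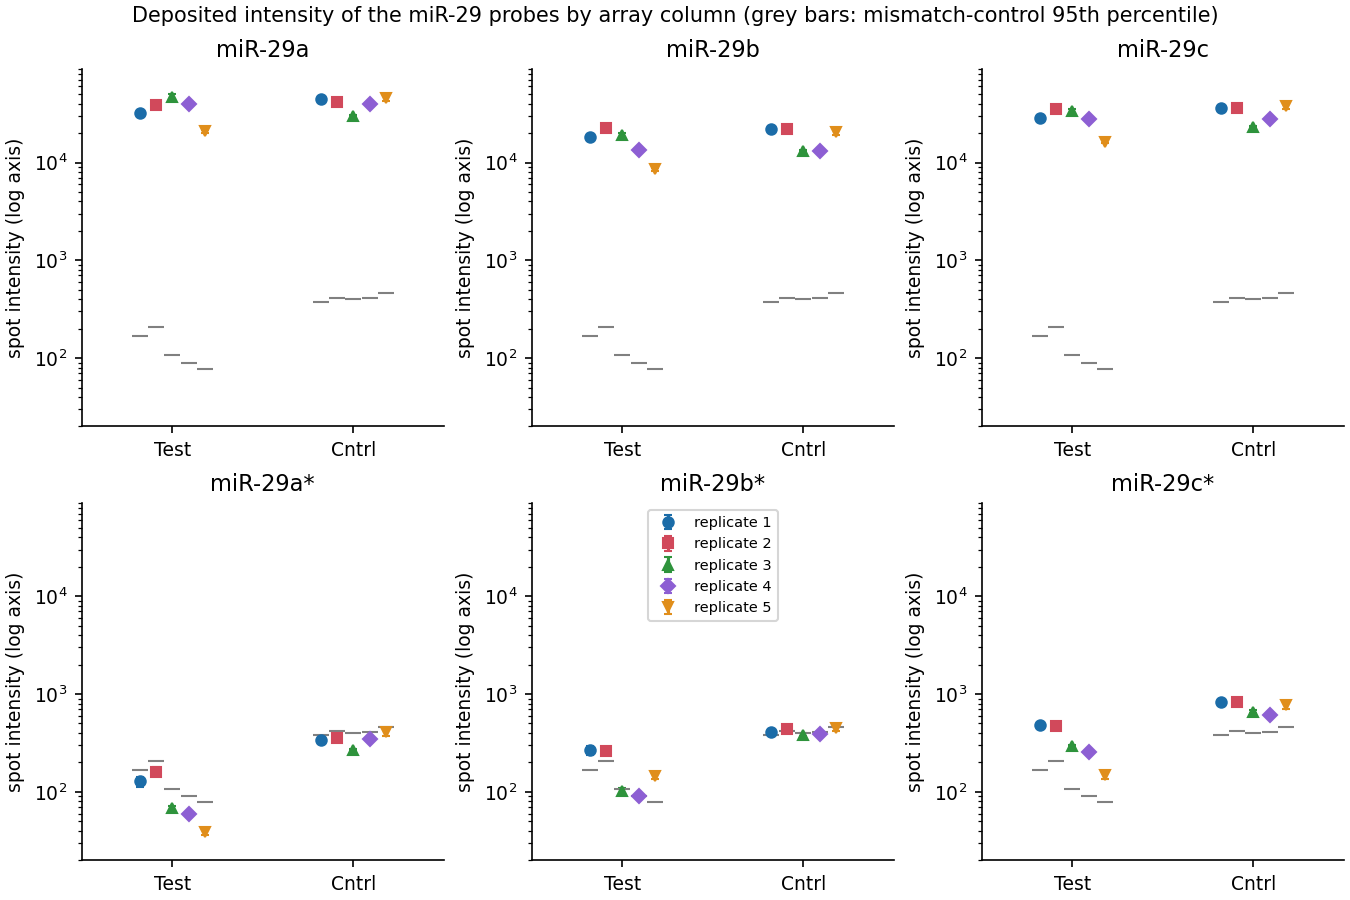
Deposited spot intensity (log axis) of the 6 miR-29 probes in the Test and Cntrl columns, 1 point per array with the SD over 6 spots, and grey bars for each array's 95th percentile of the mismatch controls. The guides in the upper row stand far above those bars, while miR-29a* lies below them on all 5 arrays in both columns and miR-29b* lies around them.

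The passenger strands were dim. MiR-29c* read 479, 469, 297, 255 and 150 units in Test, against 833, 827, 657, 605 and 767 in Cntrl, and was the only passenger strand above the mismatch controls in both columns on 5 of 5 arrays. MiR-29b* read 265, 264, 101, 90.6 and 147 units in Test, against 408, 439, 385, 388 and 455 in Cntrl. It exceeded the mismatch controls on 4 of 5 arrays in Test and on 2 of 5 in Cntrl. MiR-29a* read 128, 161, 68.3, 58.6 and 38.7 units in Test, against 343, 352, 269, 349 and 409 in Cntrl, and was below the mismatch controls in both columns on all 5 arrays. Its signal thus cannot be set apart from unspecific binding. In these unnormalized intensities the columns do not overlap for 3 of the 6 members, the passenger strands, but neither do they for 65.7% of all tested miRNAs, and the empty spots were lower in Test on every array too. Levels of different probes are not set against each other, since probes bind with different strength.

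After normexp background correction and loess normalization within each array, the guide strands showed similar ratios to one another on every array. MiR-29a had log2 ratios of −0.44, −0.16, 0.40, −0.18 and −0.96 on replicates 1 to 5. MiR-29c had −0.31, −0.12, 0.36, −0.16 and −0.98, and miR-29b had −0.23, −0.03, 0.54, −0.02 and −0.86. All 3 guides were negative on 4 of 5 arrays and positive on replicate 3 alone, and all were lowest on replicate 5.

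No guide differed between the columns in limma with Benjamini-Hochberg adjustment over 568 miRNAs. The mean log2 ratio of miR-29a was −0.27 with an SD of 0.49 over the 5 arrays, a level 1.20 times as high in Cntrl, with a 95% interval of −0.74 to 0.20 and an adjusted p of 0.440. The mean of miR-29c was −0.24 ± 0.48 (interval −0.70 to 0.22, adjusted p = 0.470 in limma). The mean of miR-29b was −0.12 ± 0.50 (interval −0.60 to 0.35, adjusted p = 0.744 in limma). The intervals leave room for differences in either direction. In bulk hippocampus, fewer cells that hold a miRNA and less of it per cell cannot be told apart.

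The spots of a guide agreed closely within each array. The 6 spots of miR-29a agreed within an SD of 0.06 to 0.11 on each array, those of miR-29b within 0.04 to 0.09 and those of miR-29c within 0.05 to 0.10. The SD between arrays was larger for the guides than for most miRNAs: 94.0% of the tested miRNAs had a smaller SD than miR-29a, 94.7% than miR-29b and 93.5% than miR-29c, and the median SD over all was 0.12. Among the 32 other miRNAs within 1 log2 unit of the brightness of miR-29a, 96.9% had a smaller SD, so the spread was not shared by bright probes at large. The medians of these like-bright miRNAs lay between −0.09 and 0.05 on the 5 arrays.

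**Figure D2:**
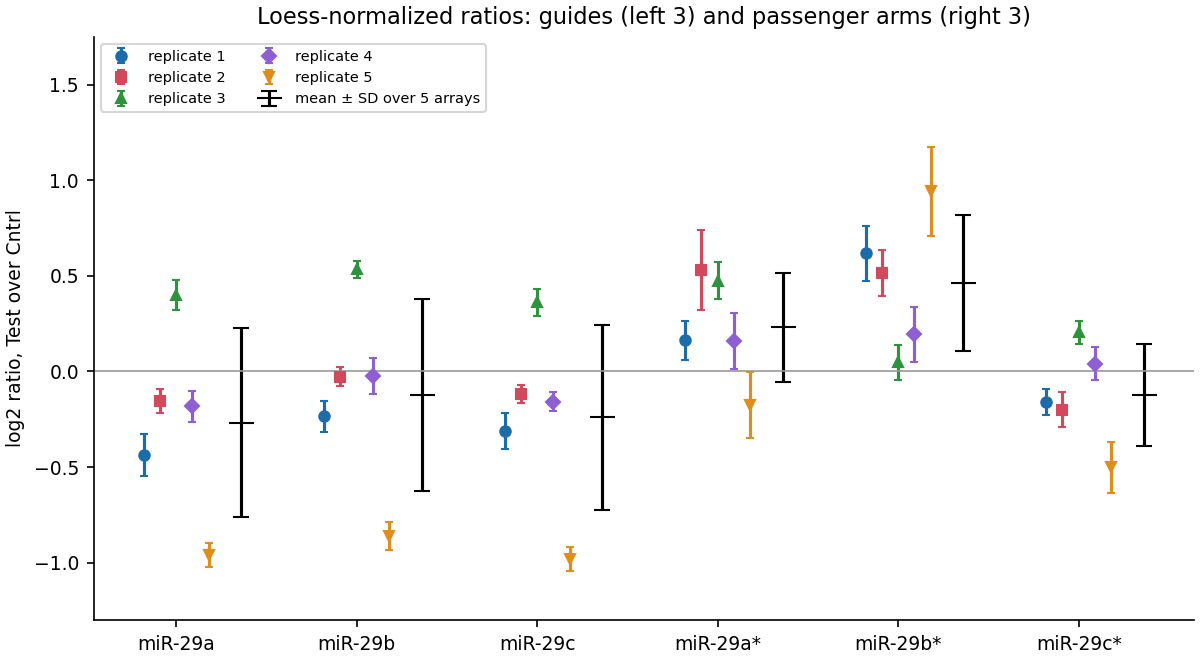
Loess-normalized log2 ratio (Test over Cntrl) of each miR-29 strand, 1 point per array with the SD over 6 spots, and in black the mean and SD over the 5 arrays. The guides repeat one pattern, highest on replicate 3 and lowest on replicate 5, while miR-29b* is positive on all 5 arrays and highest on replicate 5.

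The position of the guides was set by replicates 3 and 5. Without replicate 5 the means were −0.09 for miR-29a, −0.06 for miR-29c and 0.06 for miR-29b, so that of miR-29b changed sign. Without replicate 3 they were −0.43, −0.39 and −0.29. No guide passed the threshold when any single array was left out, with adjusted p from 0.173 to 0.888 in limma.

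Small gaps between the guides were steadier than the ratios themselves. MiR-29a minus miR-29b was −0.20, −0.13, −0.14, −0.16 and −0.10 on the 5 arrays, a mean of −0.15 ± 0.04 (SD), negative on 5 of 5. MiR-29c minus miR-29b averaged −0.12 ± 0.04 and was also negative on 5 of 5. MiR-29a minus miR-29c averaged −0.03 ± 0.06 and changed sign between arrays. The gap between miR-29a and miR-29b depended on the normalization: in the authors' deposited values it ran from −0.12 to −0.07, while without normalization it ran from −0.22 to 0.12. The gap between miR-29c and miR-29b changed sign between arrays in the authors' deposited values (−0.18 to 0.01) and without normalization (−0.10 to 0.05). These gaps were chosen for description after their values were seen, and no test was made of them.

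The 5S ribosomal RNA control probes moved with the guides from array to array. After the same loess, the 5 probes for 5S rRNA ranged from −1.32 to −1.04 on replicate 1, from −0.34 to −0.24 on replicate 2, from 0.17 to 0.94 on replicate 3, from −0.14 to 0.01 on replicate 4 and from −2.48 to −1.93 on replicate 5. Like miR-29a, miR-29b and miR-29c, they were highest on replicate 3 and lowest on replicate 5. This order was also found for 19% of the 568 tested miRNAs. The 3 bright perfect-match spike controls had ratios from 0.01 to 0.09 on replicate 5, where the guides lay at −0.86 and below, and from 0.18 to 0.25 on replicate 3. The part of 5S rRNA content in the guide ratios was not tested.

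**Figure D3:**
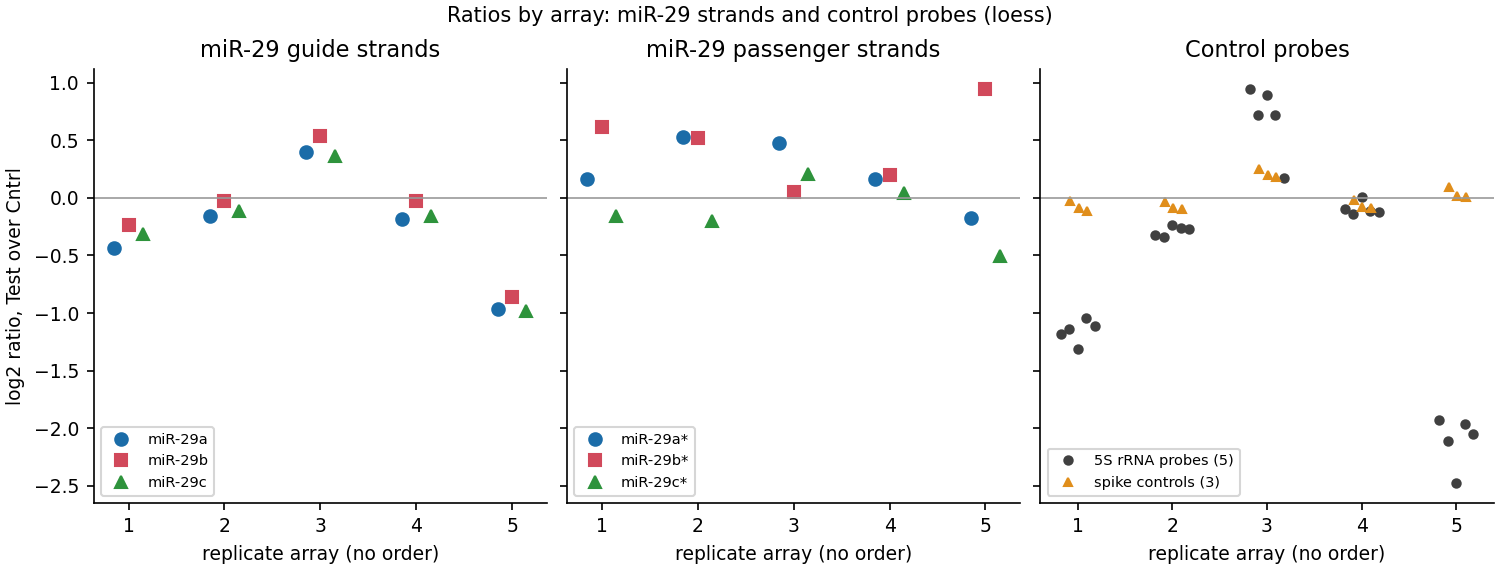
Log2 ratios (Test over Cntrl, loess) on each replicate array for the miR-29 guides, the miR-29 passenger strands, and the 5S rRNA and spike control probes. The guides and the 5S rRNA probes are both highest on replicate 3 and lowest on replicate 5, where miR-29b* reaches 0.94.

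Of the passenger strands, miR-29b* had the largest ratio. It was at 0.62, 0.52, 0.05, 0.19 and 0.94 on replicates 1 to 5, positive on 5 of 5 arrays, a feature it shared with 19.7% of the 568 miRNAs in that they kept 1 sign throughout. The mean was 0.46 ± 0.35 (SD, n = 5), or 1.38-fold higher in Test, with a 95% interval of 0.13 to 0.80. Its limma p was 0.016 before adjustment and 0.194 after it, and it was the only 1 of the 6 members with an unadjusted p below 0.05, a mark reached with a higher level in Test by 8.63% of all miRNAs. These values are limited by the dim signal, which exceeded the mismatch controls on only 2 of 5 arrays in Cntrl. The direction turned without normalization, at a mean of −0.34, and the deposited intensity was lower in Test on all 5 arrays. In that setting the median of all tested miRNAs was −0.77. The miRNAs within 1 log2 unit of the brightness of miR-29b* had medians of −1.22 to −0.54 on the 5 arrays. With median centring the mean of miR-29b* was 0.39 (limma adjusted p = 0.066). Leaving out single arrays gave means from 0.34 (without replicate 5) to 0.57 (without replicate 3), with adjusted p from 0.101 to 0.471 in limma. The spots of miR-29b* had an SD of up to 0.23 on 1 array, more than those of the guides.

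MiR-29a* was at 0.16, 0.53, 0.48, 0.16 and −0.17, positive on 4 of 5 arrays, with a mean of 0.23 ± 0.28 and an adjusted p of 0.309 in limma. All of these values come from signal below the 95th percentile of the mismatch controls. MiR-29c* was at −0.16, −0.20, 0.20, 0.04 and −0.50, with a mean of −0.12 ± 0.27 (interval −0.38 to 0.13, adjusted p = 0.494 in limma). Its mean was −0.03 without replicate 5 and −0.20 without replicate 3. MiR-29c* was thus closer to the guides than to miR-29b*: it too was highest on replicate 3 and lowest on replicate 5.

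The arms of a hairpin were compared directly, since passenger and guide come from the same precursor. For each of 104 hairpins with both strands tested, the ratio of the passenger minus that of the guide was fitted in limma and adjusted over the 104. Of these, 7.69% passed an adjusted p of 0.05 and 22.1% an unadjusted one. None of the 3 miR-29 hairpins passed. In miR-29a the passenger exceeded the guide by 0.60, 0.69, 0.08, 0.34 and 0.79, a mean of 0.50 ± 0.29 on 5 of 5 arrays (interval 0.22 to 0.78, limma adjusted p = 0.055). Keeping 1 sign on all arrays was found for 25% of the hairpins. The passenger of this hairpin is miR-29a*, whose signal is not above the 95th percentile of the mismatch controls. By that mark the difference includes signal that cannot be set apart from unspecific binding.

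In miR-29b the passenger minus guide difference was 0.85, 0.54, −0.49, 0.22 and 1.80. Its mean of 0.59 ± 0.84 was the highest of the 104 hairpins, but 98.1% of them had a smaller SD, and the limma adjusted p was 0.306 (interval −0.20 to 1.37). Without replicate 5 the mean was 0.28, and without replicate 3 it was 0.85. The passenger, miR-29b*, exceeded the mismatch controls on 4 of 5 arrays in Test and on 2 of 5 in Cntrl. Its guide probe also reads miR-29b from Mir29b-2, so this is not a comparison within 1 precursor. In miR-29c the difference was 0.15, −0.08, −0.16, 0.20 and 0.48, with a mean of 0.12 ± 0.25 and an adjusted p of 0.480 in limma. The median over all 104 hairpins was 0.04, so miR-29a and miR-29b lay at the upper end and miR-29c nearer the middle. The order between the arms depended on the normalization: with each array centred on its median and no loess, all 3 differences turned negative, at −0.41 for miR-29a, −0.17 for miR-29b and −0.53 for miR-29c. The difference of miR-29a passed in limma under 4 of 15 alternatives: with array weights (adjusted p = 0.011), without replicate 3 (0.032), with a normexp offset of 16 (0.039) and with the median of the spots (0.049).

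**Figure D4:**
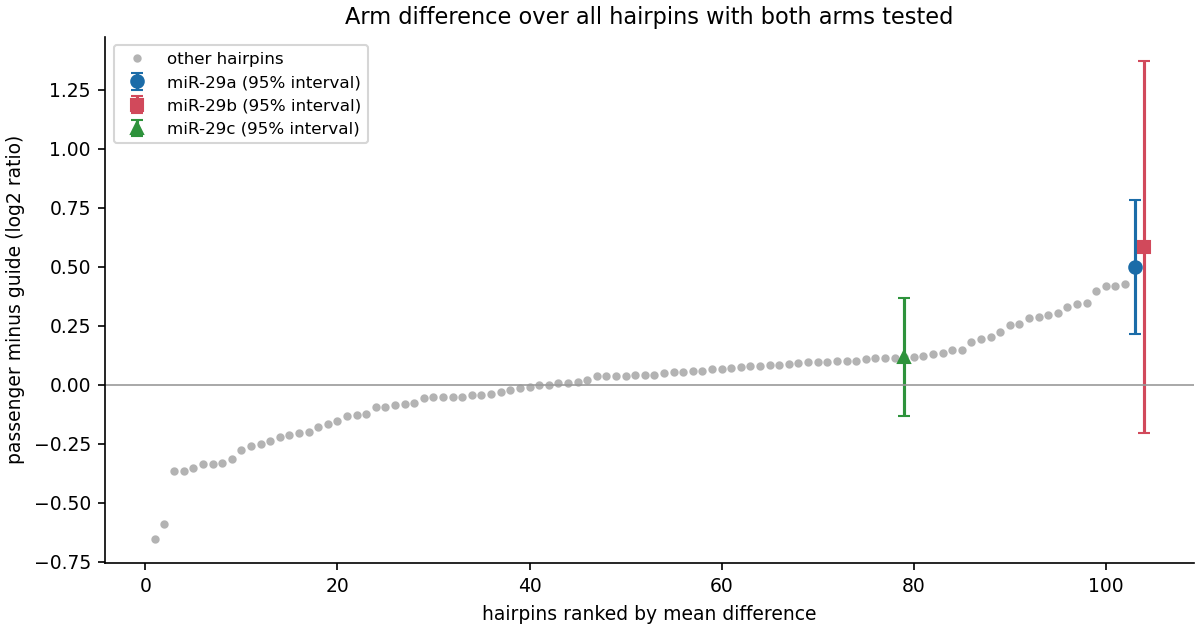
Mean passenger minus guide difference in log2 ratio (Test over Cntrl) for 104 hairpins, ranked, with the 95% intervals of the miR-29 hairpins. MiR-29b and miR-29a stand at the upper end, and the intervals of miR-29b and miR-29c include 0.

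The direction of the guides also turned with the normalization. Without any normalization the median of all tested miRNAs was −0.77, and the guides lay at −0.20 for miR-29a, −0.16 for miR-29b and −0.20 for miR-29c, above that median. With median centring they lay at 0.53 (limma adjusted p = 0.174), 0.56 (0.135) and 0.52 (0.155). In that setting the like-bright miRNAs around miR-29a had medians of 0.40 to 1.19 on the 5 arrays, against −0.09 to 0.05 after loess.

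The authors' own deposited log ratios gave the same picture for the guides. Their sign follows Test over Cntrl: over the 112 brightest miRNAs they correlated with the loess ratios at r = 0.978 to 0.999 on each array, across miRNAs that share an array and are no replicates, with slopes of 0.965 to 1.01, while over all 568 miRNAs r was 0.773 to 0.926. For bright miRNAs such as the guides, scale and direction against the columns are thus known. For dim ones, the passenger strands among them, the scale is less certain. The genotype on top is not known, and the medians of the deposited columns lay between −0.05 and −0.02. In these values miR-29a averaged −0.26 ± 0.47, miR-29c −0.24 ± 0.46 and miR-29b −0.16 ± 0.47 (SD, n = 5). The dim passenger strands were more spread, with miR-29b* at 0.69 ± 0.58 and miR-29a* at 0.41 ± 0.92.

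**Figure D5:**
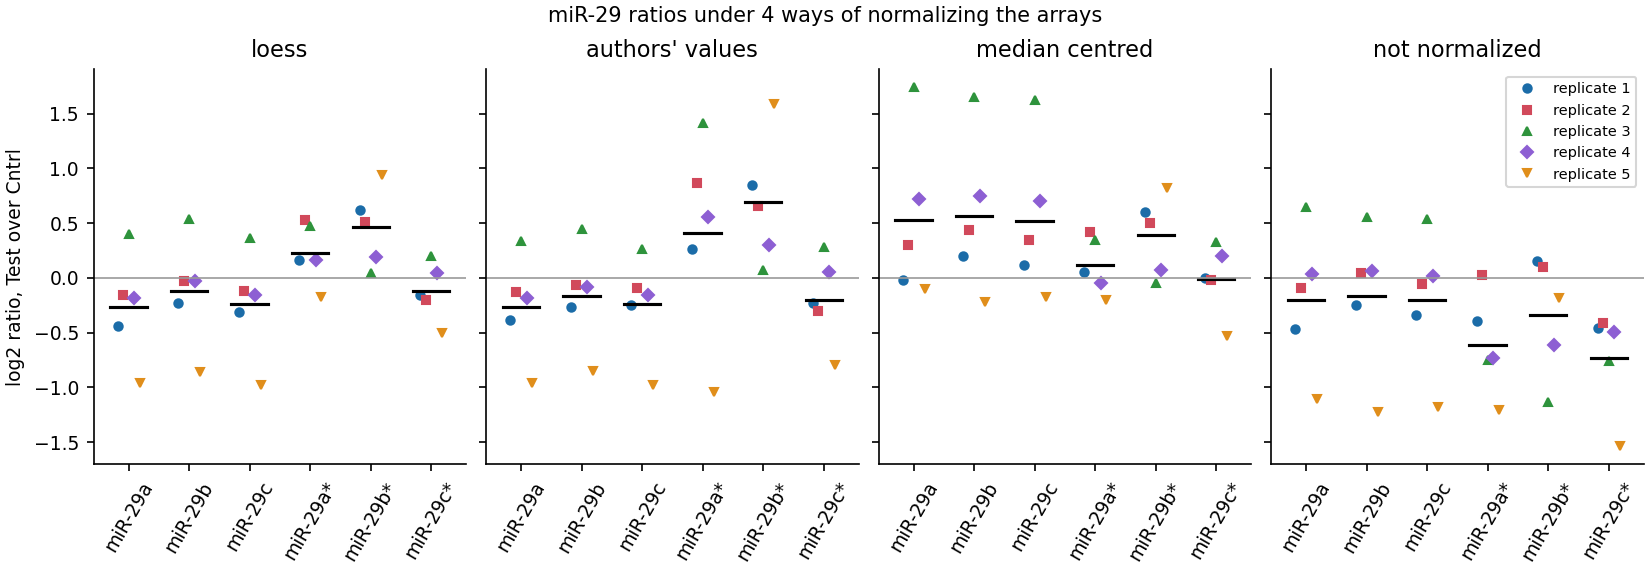
Log2 ratios (Test over Cntrl) of the 6 miR-29 strands on each array after loess, in the authors' deposited values, after median centring and without normalization, with a black line at each mean. Within each guide, replicate 3 is highest and replicate 5 lowest in all 4 panels, while the means of the guides are above 0 only after median centring.

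MiRNAs with the most similar profile were found by the root mean square difference in log2 ratio over the 5 arrays. For miR-29a the closest of all was miR-29c (0.06), then miR-29b (0.15), then the non-members miR-22 (0.15), miR-425 (0.18) and miR-300 (0.18). The median difference from miR-29a over all tested miRNAs was 0.52. For miR-29b the closest was miR-30e (0.06), ahead of miR-551b (0.11), miR-29c (0.12) and miR-22 (0.13). For miR-29c, after both other guides, they were miR-129-3p (0.14), miR-22 (0.16) and miR-30e (0.17). None of these non-members has the seed of the guides.

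The profile of miR-29b* was closest to those of miR-384-5p (0.20), miR-30a* (0.21) and miR-335-3p (0.22). MiR-384-5p had ratios of 0.37, 0.42, −0.29, 0.21 and 0.85 on replicates 1 to 5, and like miR-29b* it was highest on replicate 5 and lowest on replicate 3. MiR-29b*, in turn, was among the probes least like the guide miR-29a, at rank 555 of the 567 others.

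Other miRNAs reported to act on DNA methylation enzymes, not only on Dnmt3a and Dnmt3b, or on Bace1 were looked at as lists. Of 8 reported to repress DNA methyltransferases or TET enzymes, 6 had positive and 2 negative means, and none passed over all miRNAs (0% called). Their median ratio was 0.06, against 0.003 for all 568 tested, of which 293 had positive and 275 negative means. With the smallest p in this list were miR-148a at 0.26 ± 0.16 (limma adjusted p = 0.152), miR-148b at 0.27 ± 0.24 (0.221) and miR-152 at 0.23 ± 0.21 (0.222), which share a seed family known for acting on Dnmt1, the maintenance methyltransferase. The miR-29 guides had negative means. Of 4 miRNAs reported to act on Bace1, 1 had a positive mean, miR-195 at 0.15 ± 0.11 (limma adjusted p = 0.206), and 3 negative, among them miR-124 at −0.08 ± 0.15 and miR-485 at −0.11 ± 0.27. Across arrays, 4 of the 8 miRNAs of the first list (miR-22, miR-101a, miR-101b and miR-148b) and 2 of the 4 of the second (miR-124 and miR-107) were highest on replicate 3 and lowest on replicate 5, as were the guides and miR-29c*, 4 of the 6 family members. Of all 568 tested miRNAs, 19% had this order; it was counted after the values were seen and was not tested. MiR-101a had ratios of −0.08, 0.13, 0.72, 0.16 and −0.89 on replicates 1 to 5. The array medians of the first list were 0.06, 0.14, 0.34, 0.09 and −0.11.

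Among the cell type markers, all 5 neuron-enriched miRNAs had negative means (median −0.08), as did 275 of all 568 tested miRNAs. None of the 5 passed. Their array medians were −0.10, −0.01, −0.10, −0.08 and −0.25, lowest on replicate 5 as the guides were, but not high on replicate 3. Their summed intensity ran from 108271 to 151963 units in Test and from 123955 to 146820 in Cntrl. Single members differed from these medians. MiR-124 had the order of the guides, highest on replicate 3 (0.14) and lowest on replicate 5 (−0.27). MiR-138 had the opposite order, lowest on replicate 3 (−0.43) and highest on replicate 5 (0.12). Of the oligodendrocyte miRNAs, miR-338-3p had ratios of 0.20, −0.08, 0.66, 0.42 and −0.67 on replicates 1 to 5, highest on replicate 3 and lowest on replicate 5 as the guides were. The other, miR-219, was above the mismatch controls on 1 of 5 arrays. Its ratios of −0.11, −0.45, −0.02, −0.03 and −0.16 were all negative and lowest on replicate 2. The list of both had array medians of 0.05, −0.26, 0.32, 0.19 and −0.41. Its summed intensity was 1150 to 5197 units in Test and 1979 to 5807 in Cntrl. The array medians of the remaining lists were not lowest on replicate 5. The median ratio was 0.12 for microglia and leukocytes, 0.07 for vessel walls, 0.04 for red blood cells and 0.03 for striated muscle. Single members of these lists departed from the medians. The red blood cell miRNA miR-451 was lowest on replicate 5 (−0.32). The muscle miRNA miR-1 ran from −1.04 on replicate 3 to 2.26 on replicate 5. No miRNA of any list passed. The part of cell composition in the miR-29 ratios was not tested.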

How the data were processed

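Small RNA from 5 pairs of mice was hybridised to 5 two-colour arrays. Per the file headers, the authors deposited the mean foreground intensity, background and foreground SD of 3968 spots per array; background is 0 in every row. The scanner is not given in the sources used here. Also deposited by the authors was a table of log2 ratios per miRNA, used as an alternative. Intensity was corrected by normexp (offset 50), normalized by loess within each array with the 554 control spots at weight 0, and averaged over 6 spots on the log2 scale. The model for ratios was an intercept per miRNA, by limma 3.58.1 under R 4.3.3, with eBayes and two-sided Benjamini-Hochberg adjustment over 568 miRNAs, and arm differences likewise over 104 hairpins. The array pairs the mice, so the ratio carries the pair. Fits were tested on simulated data with errors drawn independently for each miRNA and array. Array patterns shared between miRNAs, as seen here, were thus not simulated in those draws. The number of arrays limits precision. Nothing was left out except 1 probe below the filter.

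Labels and headers do not settle which genotype Test holds, so ratios are Test over Cntrl. P-values measure the spread between arrays, in which pairs of mice, labelling and hybridisation cannot be told apart. The 6 members and all lists were chosen with earlier results of these data known. Named by rule were all members, the 3 most similar non-members of the guides and of miR-29b*, and up to 3 per related list by smallest p. Further miRNAs of the related and marker lists, such as miR-101a, miR-138, miR-338-3p, miR-451 and miR-1, were named outside this rule. They were picked for their values on single arrays, after these were seen. Alternatives covered background, normalization, filters, spot summary, variance model, array weights, pairing, single arrays and the authors' values. A filter on the mismatch controls was chosen after seeing the data. The miR-29 sequences and coordinates are those of RefSeq (GRCm38.p6).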

Additional observations from a re-analysis of the deposited data

How the results depend on the processing

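The count of miRNAs past an adjusted p of 0.05 was 0 of 568 in limma, with 110 at an unadjusted p below 0.05. It was 248 with median centring, 442 with no normalization, 4 with robust eBayes on an intensity trend, 21 with array weights, and 2 each with a normexp offset of 16 and with the authors' processed values; without single arrays it ran from 0 to 5 (5 without replicate 3). With no replicate block it was 0 (59 unadjusted), and no member passed. The count of hairpins with unequal arms was 8 of 104. It was 24 with median centring and 24 with no normalization, where all calls were lower in the passenger, 23 with array weights, and 0 with blank subtraction, with the authors' processed values, with detection in both columns on all 5 arrays (73 hairpins) and with probes above the mismatch controls (44 hairpins); without single arrays it ran from 0 to 24 (24 without replicate 3, 7 without replicate 5, 0 without replicate 1, 2 or 4). With median centring miR-29a, miR-29b and miR-29c turned to 0.53, 0.56 and 0.52, and their arm differences to −0.41, −0.17 and −0.53, also found with no normalization. With no normalization miR-29a* turned to −0.61, past the threshold (limma adjusted p = 0.00076), and miR-29b* to −0.34, and miR-29c* stood at −0.73 (limma adjusted p = 5.8e-05), near the median of all miRNAs of −0.77. Without single arrays miR-29b ranged from −0.29 to 0.062, turning without replicate 5. Why these counts move was not tested. All other alternatives kept the direction of each member. The intensity trend was not run for arm differences, only robust eBayes. Signal over background limits miR-29a* and miR-29b*.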

Other observations

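The passenger strands depended on how dim signal was treated. On replicate 3 miR-29a* had a ratio of 0.48 after loess and of 1.42 in the authors' deposited values, and on replicate 5 it had −0.17 and −1.04. With blank subtraction in place of normexp its mean was 0.52, against 0.23, and that of miR-29b* was 0.76, against 0.46. Under the same change the guides stood at −0.26 for miR-29a, −0.13 for miR-29b and −0.24 for miR-29c, against −0.27, −0.12 and −0.24.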
